A study of Homo sapiens with 12 samples.

Results

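The mitosis and spindle genes are 48 genes whose products drive entry into mitosis, build the spindle, hold chromosomes to it and divide the cell. They were picked by name among the gene identifiers of the count table, 48 of the 26481 genes with a complete row, and all 48 passed the filter on low counts that left 14164 genes for testing. RNA came from barcoded HEL cells, an established human erythroleukemia line that serves as a model of acute myeloid leukemia (AML). The 12 libraries form 4 groups. NT cells received only the solvent dimethyl sulfoxide (n = 2). Their samples are listed with the same times as the rest, 72 to 74 h of exposure and about 30 days of growth. The other groups are relapses, cultures that grew back for about 30 days once a drug exposure of 72 to 74 h had been washed out: 1.8 µM doxorubicin alone (Doxo, n = 3), the same dose with 6 µM cytarabine (Doxo+Cyta, n = 3), and those drugs at the same doses with 0.1 µM decitabine (Doxo+Cyta+DAC, n = 4). Doxorubicin poisons topoisomerase II, cytarabine is a nucleoside analog that stops DNA synthesis, and decitabine is a nucleoside analog that inhibits DNA methyltransferases. The RNA is therefore that of regrown cultures of 1 cell line and not of cells under drug, and no library of cells given decitabine alone was analysed here.

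Transcripts of mitotic genes are scarce in G1, build up through G2 and are shut off after division. In resting cells the DREAM complex, which joins the pocket protein RBL2 or RBL1 to E2F4 and the MuvB core, represses many of these genes through a promoter element called the cell cycle genes homology region (CHR). In cycling cells MYBL2 and FOXM1 bind the same core and activate them, while NF-Y binds the neighbouring CCAAT boxes, and E2F sites mark the promoters of DNA replication genes. In bulk RNA, fewer cells in G2 and mitosis and less RNA per cell cannot be told apart.

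The promoter windows of 5 members show these elements. BUB1 had the lowest log2 fold change of all members in Doxo+Cyta+DAC relative to each other group, KIF20B and SPC25 were among the 3 with the highest, and CCNB2 and KIF11 were picked after the matches were seen, for 3 CCAAT boxes and for an element read on the opposite strand. Each stretch holds the 120 bases before the annotated start and the 30 from it on, 5′ to 3′ on the strand of the gene, from RefSeq on GRCh38.p14. BUB1 lies at chr2:110678034-110678183 (minus strand), CCNB2 at chr15:59105026-59105175 (plus strand), SPC25 at chr2:168890401-168890550 (minus strand), KIF20B at chr10:89701470-89701619 (plus strand) and KIF11 at chr10:92593010-92593159 (plus strand). Capitals mark a CHR, a CCAAT box or an E2F site. The CHR was searched as TTTGAA on both strands, and also as the variant TTCGAA, which reads alike on both. The CCAAT box was searched on both strands as well, where it reads as ATTGG on the opposite one.
BUB1: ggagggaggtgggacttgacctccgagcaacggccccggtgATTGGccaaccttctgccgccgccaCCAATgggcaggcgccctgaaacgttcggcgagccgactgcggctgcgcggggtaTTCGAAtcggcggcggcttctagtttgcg
CCNB2: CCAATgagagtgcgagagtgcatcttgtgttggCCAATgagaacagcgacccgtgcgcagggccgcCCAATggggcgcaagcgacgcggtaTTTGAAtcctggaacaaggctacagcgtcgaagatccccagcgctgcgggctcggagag
SPC25: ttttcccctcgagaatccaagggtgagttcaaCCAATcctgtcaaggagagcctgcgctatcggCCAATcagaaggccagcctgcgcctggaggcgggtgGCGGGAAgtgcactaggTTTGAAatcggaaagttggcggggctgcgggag
KIF20B: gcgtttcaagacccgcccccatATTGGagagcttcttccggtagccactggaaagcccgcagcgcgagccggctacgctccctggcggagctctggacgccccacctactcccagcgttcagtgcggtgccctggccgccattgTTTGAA
KIF11: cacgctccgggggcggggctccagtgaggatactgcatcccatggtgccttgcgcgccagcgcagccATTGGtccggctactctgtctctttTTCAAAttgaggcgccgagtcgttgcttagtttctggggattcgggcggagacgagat
The CHR of BUB1 began at base 2 counted from the start and its CCAAT boxes at -79 and -54. In SPC25 the CHR began at -3, below an E2F match at -20, and in KIF20B at 25, inside the transcribed part. CCNB2 held its CHR at -29, and KIF11 at -28.

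Over the 41 members with an entry among the RefSeq promoters, 30 (73.2%) held a CHR between 250 bases before and 50 after the start, compared with 16.6% of all 27305 promoters in the same window and 2 of 43 genes of DNA replication (4.65%). A CCAAT box was present in 75.6% of the members, 60.5% of the replication genes and 35.7% of all promoters. The E2F site was searched on both strands as TTCGCGC, with the variant TTGGCGC that differs in its middle and the further variant TTCCCGC, and was found in 24.4% of the members, 72.1% of the replication genes and 11.2% of all promoters. A CHR and a CCAAT box occurred together in 63.4% of the members and 6.58% of all promoters. The 41 CHR matches had a median first base of -23 and the CCAAT matches one of -74, and 3 matches of different elements overlapped. CHR letters were present in 10 of the 11 members with an entry that were higher in Doxo+Cyta+DAC than in Doxo+Cyta, in 9 of 16 that were lower and in 11 of 14 that did not pass the test. A match is only a run of letters. AURKA, BIRC5, BUB3, TTK, UBE2C, TPX2 and FOXM1 had no entry.

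**Figure D1:**
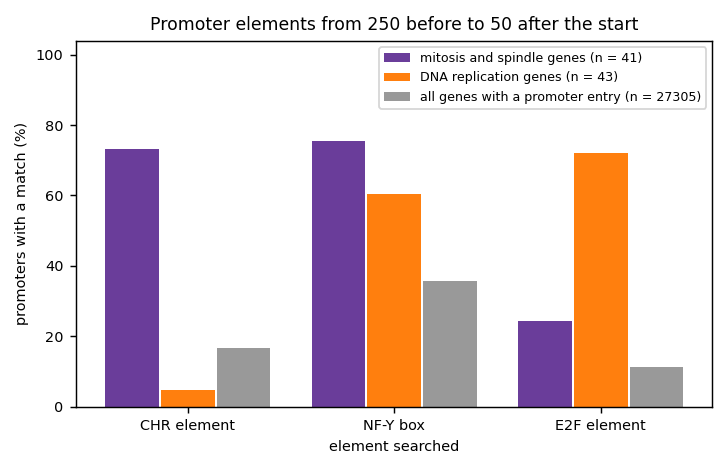
Share of promoters (%) that hold a CHR element, a CCAAT box (NF-Y box) or an E2F element from 250 bases before to 50 after the start, for the mitosis and spindle genes (41 with an entry), the DNA replication genes (43) and all 27305 genes with an entry. The CHR element stands at 73.2% in the mitosis and spindle genes and at 4.65% in the DNA replication genes.

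Each library held between 12763582 and 19106235 counted fragments, and a count of 3, taken as the lowest level a library can show, came to between 0.157 and 0.235 CPM, the normalised count scaled to the size of the library. The limit covers counting error only. Members had between 199 and 14142 counts in a library. Doxo 4 and Doxo+Cyta 20 stood apart from the other libraries of their groups: the chi-square per degree of freedom between libraries, over at least 13234 genes, was 29.7 and 27.3 for Doxo 4 against its partners and 3.1 between those partners, and 46.7 and 48.5 for Doxo+Cyta 20 against 7.33 between its partners. Counts of members are therefore given with and without both libraries. Leaving them out keeps 2 libraries each in Doxo and Doxo+Cyta. They were picked for their distance from their partners, so the spread within groups is narrower without them and p-values are lower for that reason too. In Doxo relative to NT, 37.4% of all genes were then called instead of 10.7%. Of the erythroid markers, 8 of 8 were present, with a summed level of 6250 to 7521 CPM in NT, 7380 to 8462 in Doxo, 8020 to 9180 in Doxo+Cyta and 4821 to 7186 in Doxo+Cyta+DAC. The 6 megakaryocytic markers summed to 1770 to 1850 CPM in NT, 1607 to 1966 in Doxo, 1609 to 2016 in Doxo+Cyta and 1134 to 1424 in Doxo+Cyta+DAC, with PF4 at no more than 2 counts in any library. Of 7 markers of other blood cells, MS4A1 had no count in any library, CD3E and MPO had at most 2, and the list summed to between 25.2 and 60.6 CPM. CD2, which made up most of that sum, was expressed in every library, with 290 to 883 counts (19.95 to 55.7 CPM). It was higher in Doxo than in NT, with a log2 fold change of 0.91 (edgeR, adjusted p = 0.0436). The 4 markers of cells outside blood summed to between 0.55 and 1.8 CPM, with EPCAM at no more than 2 counts. Megakaryocytic sums were lower in all 4 Doxo+Cyta+DAC libraries than in the rest, and the part of these markers in the results for the members was not tested.

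Summed over the 48 members, expression was lowest in Doxo+Cyta+DAC relapses. The sum was 7464 ± 73.95 CPM in the 2 NT libraries (mean ± SD), 7612 ± 441 CPM in the 3 of Doxo, 6804 ± 238 CPM in the 3 of Doxo+Cyta and 6226 ± 200 CPM in the 4 of Doxo+Cyta+DAC, or between 0.596% and 0.642% of all fragments in Doxo+Cyta+DAC and between 0.782% and 0.805% in NT. In CPM all 4 Doxo+Cyta+DAC libraries lay below every other library. As a share of fragments they did not, since Doxo+Cyta ranged from 0.624% to 0.707% and Doxo+Cyta 20 lay below 2 of them. BUB1 accounted for part of that gap: without it the sums were 6728 ± 61.4, 6918 ± 391, 6139.7 ± 123 and 5941 ± 193 CPM in the same order, and the highest Doxo+Cyta+DAC library (6137) then lay above the lowest Doxo+Cyta library (5998). Per kb of exon, CDC20 had the highest mean level of the 48 (219 CPM per kb over the 12 libraries), followed by CKS1B (175) and BUB1 (153), and KIF20B had the lowest (5.88).

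**Figure D2:**
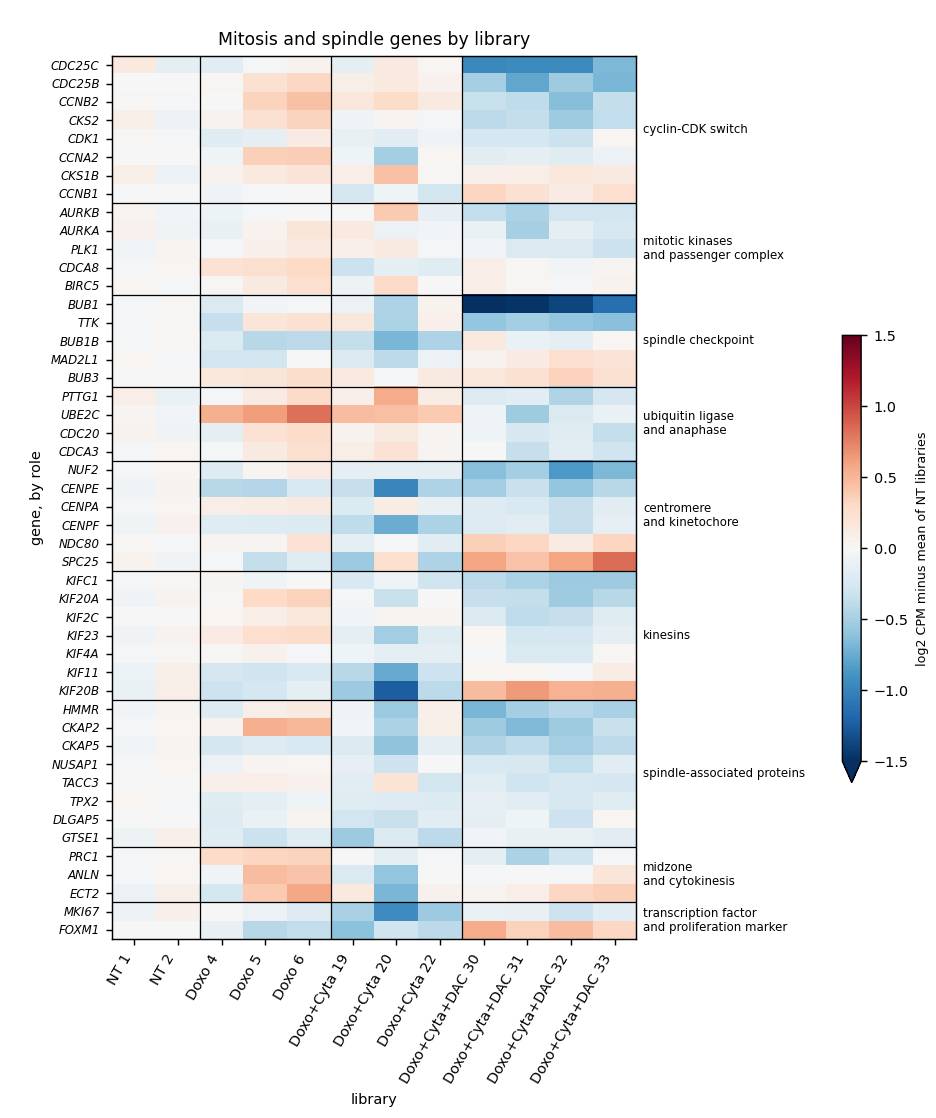
Log2 CPM of each of the 48 genes in each of the 12 libraries minus the mean of the NT libraries (color, from -1.5 to 1.5 or beyond), with genes grouped by role and vertical lines between groups. BUB1 is the darkest blue row in all 4 Doxo+Cyta+DAC libraries, while SPC25, KIF20B and FOXM1 are red in the same 4.

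Differences were tested in edgeR's quasi-likelihood model over all 14164 genes, and a gene is called higher or lower at an adjusted p under 0.05. A value after ± beside a log2 fold change is its SE. The comparisons with Doxo+Cyta+DAC share its 4 libraries, so their results are given side by side and are not independent of each other. Relative to NT, 20 members were called in Doxo+Cyta+DAC, when 48.7% of all tested genes were. Of them 5 were higher and 15 lower, where 24.9% and 23.7% of all tested genes were called in these directions. Scaled by total counts alone the same comparison gave 1 higher and 24 lower (48.1% of all genes called), and with upper-quartile scaling 3 and 22 (48.4%). These scalings moved the median log2 fold change over all tested genes from 0.02 to -0.08 and -0.06. That of the members moved with it, from -0.20 to -0.30 and -0.29. Relative to Doxo, 7 were higher and 26 lower (59.5% of all genes called), with 29.1% and 30.4% of all genes called higher and lower. Relative to Doxo+Cyta, 12 were higher and 18 lower, with 29.8% and 30.5% of all genes called, or 60.3% in either direction. The median log2 fold change over the members was -0.20, -0.26 and -0.10 in these comparisons, and that over all tested genes was 0.02, -0.01 and 0.00. Without Doxo 4 and Doxo+Cyta 20, the same comparisons called 33, 36 and 33 members, when 60.7%, 67.9% and 66.8% of all genes were called. Nearly all of these differences were small: only BUB1 in each of them, and KIF20B relative to Doxo+Cyta, passed a fold change of 2 with an adjusted p under 0.01, as did 16.2%, 21.6% and 23.3% of all genes. In the comparisons among the other groups the same limits were passed by 1.55% of all genes in Doxo relative to NT and 0.374% in Doxo+Cyta relative to Doxo, with no member among them.

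In Doxo+Cyta+DAC the members moved in both directions, also within single complexes. Counts by role below are of few genes each. Of all tested genes, 24.9%, 29.1% and 29.8% were called higher relative to NT, Doxo and Doxo+Cyta, and 23.7%, 30.4% and 30.5% lower. A set of 13 members was called lower than in each of the other groups: AURKB, BUB1, CCNB2, CDC25B, CDC25C, CKAP2, CKS2, HMMR, KIF20A, KIF2C, KIFC1, NUF2 and TTK (27.1% of the members, compared with 18.7% of all tested genes). SPC25, KIF20B and FOXM1 were called higher than in each of them (6.25% of the members, compared with 18.7% of all tested genes). ANLN, BIRC5, CDK1, CKS1B, DLGAP5, ECT2, KIF4A and TPX2 did not pass the test in any of the 6 comparisons. Without Doxo 4 and Doxo+Cyta 20, ANLN was called in 3 comparisons, ECT2 in 2 and TPX2 in 1, and the other 5 again in none. Libraries of Doxo+Cyta+DAC lay wholly above those of NT for 7 members and wholly below for 28, when 34.2% and 32.9% of all genes did so. Against Doxo the counts were 8 and 24 (29.7% and 30.2% of all genes), and against Doxo+Cyta 13 and 17 (29% and 28.2%).

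**Figure D3:**
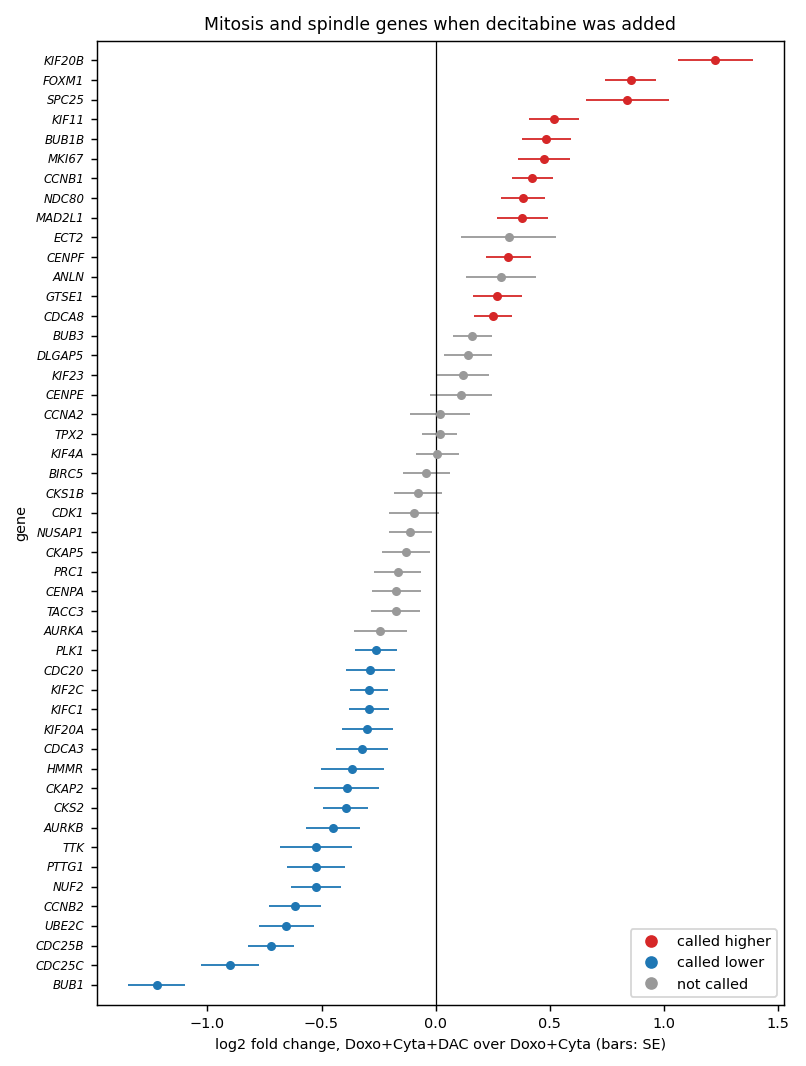
Log2 fold change of each of the 48 genes in Doxo+Cyta+DAC (n = 4) over Doxo+Cyta (n = 3) with its SE as a bar, sorted, and colored by whether the gene was called higher (12), called lower (18) or not called (18) at an adjusted p under 0.05. BUB1 lies lowest at -1.22 and KIF20B highest at 1.22.

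Among the 8 genes of the cyclin-CDK switch, which turns on the kinase that starts mitosis, 4 were lower in Doxo+Cyta+DAC than in NT. Relative to Doxo 5 were lower and 1 higher, and relative to Doxo+Cyta 4 were lower and 1 higher. The phosphatases that activate CDK1 fell most, while CCNB1, its main mitotic cyclin, was higher than in Doxo and Doxo+Cyta. CDC25C was at 29.4 and 24.2 CPM in NT, 23.7, 26.3 and 27.6 in Doxo, 24.3, 29.2 and 27.2 in Doxo+Cyta and 13.6, 13.7, 13.7 and 16.7 in Doxo+Cyta+DAC. Every Doxo+Cyta+DAC library was below every other library, and the remaining groups overlapped. The log2 fold change was -0.90 ± 0.14 relative to NT (adjusted p = 0.000194), -0.85 ± 0.13 relative to Doxo (adjusted p = 7.45e-05) and -0.90 ± 0.13 relative to Doxo+Cyta (adjusted p = 3.82e-05). CDC25B, the other phosphatase, had 119.5 and 120.3 CPM in NT, 122, 141 and 148 in Doxo, 128, 133 and 125 in Doxo+Cyta and 84.8, 69.9, 82.5 and 74.6 in Doxo+Cyta+DAC. It too was lowest in all 4 Doxo+Cyta+DAC libraries, with -0.62 ± 0.11 relative to NT (adjusted p = 0.00048), -0.81 ± 0.10 relative to Doxo and -0.72 ± 0.10 relative to Doxo+Cyta. Both genes passed the test at the threshold of 0.05 in every alternative tried for these 3 comparisons.

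CCNB1 stood at 117 and 118 CPM in NT, 113, 115 and 117 in Doxo, 98.8, 113 and 97.0 in Doxo+Cyta and 147, 137, 128 and 139.8 in Doxo+Cyta+DAC. The 4 Doxo+Cyta+DAC libraries were the highest of all 12, and the gene was called relative to Doxo+Cyta (0.42 ± 0.09, adjusted p = 0.00106) and relative to Doxo (0.26 ± 0.09, adjusted p = 0.0222) but not relative to NT (0.23 ± 0.10, adjusted p = 0.0766), where it was called only without Doxo 4 and Doxo+Cyta 20, at 0.20 ± 0.07 (adjusted p = 0.0251). The call relative to Doxo was lost in 4 of 16 alternatives, without Doxo 5, Doxo 6 or Doxo+Cyta+DAC 30 among them, with an adjusted p of up to 0.0652. CDK1, the kinase that CCNB1 activates, was not called in any comparison. It was at 113 and 109.8 CPM in NT, 98.1, 101 and 121 in Doxo, 103, 99.7 and 107 in Doxo+Cyta and 92.4, 92.7, 88.9 and 113 in Doxo+Cyta+DAC, and Doxo+Cyta+DAC overlapped each other group, with -0.09 ± 0.11 relative to Doxo+Cyta (adjusted p = 0.473). CCNA2, the cyclin of S phase and G2, had 159 and 161 CPM in NT, 154, 206 and 208 in Doxo, 153, 113 and 164 in Doxo+Cyta and 142, 147, 141 and 151 in Doxo+Cyta+DAC. Doxo 5 and 6 were the highest libraries and Doxo+Cyta 20 the lowest, and Doxo+Cyta+DAC was called lower relative to Doxo alone (-0.38 ± 0.13, adjusted p = 0.0216). Without Doxo 5 or without Doxo 6 that call was lost (adjusted p up to 0.0984). Without Doxo 4 and Doxo+Cyta 20, CCNA2 was also called lower in Doxo+Cyta+DAC than in NT (-0.17 ± 0.06, adjusted p = 0.0377). CCNB2, a further mitotic cyclin, and CKS2, a small subunit that binds CDKs, were called lower in all 3 comparisons, with log2 fold changes from -0.69 to -0.39, and CKS1B in none. Relative to NT the call of CCNB2 was lost without either NT library and that of CKS2 without NT 1 (adjusted p up to 0.0863 and 0.115).

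**Figure D4:**
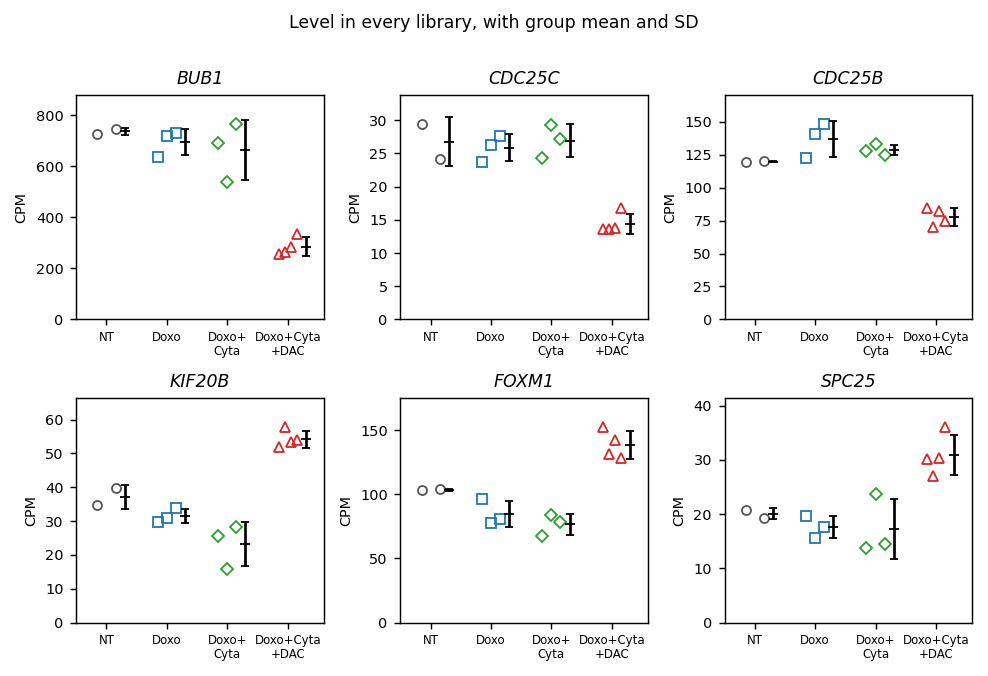
Level in CPM of the 3 members that were lowest (BUB1, CDC25C, CDC25B) and the 3 that were highest (KIF20B, FOXM1, SPC25) by log2 fold change in Doxo+Cyta+DAC over Doxo+Cyta, with 1 symbol for each library, and the mean and SD of each group as a black bar beside it. In each panel the 4 Doxo+Cyta+DAC libraries lie outside the range of the other 8.

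The mitotic kinases and the chromosomal passenger complex, which corrects faulty attachments of chromosomes, had small differences. Of 5 genes, 1 was lower than in NT, 4 were lower than in Doxo (30.4% of all tested genes), and relative to Doxo+Cyta 2 were lower and 1 higher. AURKB, the kinase of the passenger complex, stood at 91.3 and 86.4 CPM in NT, 84.3, 86.8 and 89.3 in Doxo, 88.2, 117 and 81.5 in Doxo+Cyta and 69.0, 64.0, 72.8 and 73.6 in Doxo+Cyta+DAC. The 4 Doxo+Cyta+DAC libraries were below all others, and Doxo+Cyta 20 was the highest library. AURKB was lower in each comparison, by a log2 fold change of -0.35 ± 0.13 relative to NT (adjusted p = 0.0441), -0.31 ± 0.12 relative to Doxo (adjusted p = 0.035) and -0.45 ± 0.12 relative to Doxo+Cyta (adjusted p = 0.00458). The first of these calls was lost when any 1 of the NT or Doxo+Cyta+DAC libraries was left out (adjusted p up to 0.214) and the second without Doxo 4, 5 or 6 or Doxo+Cyta+DAC 30 or 31 (up to 0.106). BIRC5 (survivin), a subunit of the same complex, was at 152 and 147 CPM in NT, 152, 164 and 178 in Doxo, 141, 183 and 149.8 in Doxo+Cyta and 160.2, 151, 148 and 155 in Doxo+Cyta+DAC. The groups overlapped in every pair, and relative to Doxo+Cyta the log2 fold change was -0.04 ± 0.10 (adjusted p = 0.744). CDCA8 (borealin), a further subunit, had 188 and 198 CPM in NT, 224, 228 and 238 in Doxo, 154, 174 and 169 in Doxo+Cyta and 207, 195, 188 and 199 in Doxo+Cyta+DAC. Doxo+Cyta held the 3 lowest libraries and Doxo the 3 highest, so that Doxo+Cyta+DAC was called lower than Doxo (-0.22 ± 0.08, adjusted p = 0.0316) and higher than Doxo+Cyta (0.25 ± 0.08, adjusted p = 0.0186). The first call was lost in 6 of 16 alternatives, without Doxo 5, Doxo 6 or Doxo+Cyta+DAC 31, 32 or 33 among them, and the second in 3, without Doxo+Cyta 19 among them (adjusted p up to 0.118 and 0.117).

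PLK1, the polo kinase of mitotic entry and spindle poles, stood at 189.8 and 202 CPM in NT, 192, 207 and 217 in Doxo, 206, 215 and 193 in Doxo+Cyta and 189.7, 168, 168 and 157 in Doxo+Cyta+DAC. No Doxo+Cyta+DAC library was above a library of another group, but the highest of them lay close to the lowest of NT. Relative to Doxo+Cyta the log2 fold change was -0.26 ± 0.09 (adjusted p = 0.0231) and relative to Doxo -0.27 ± 0.09 (adjusted p = 0.0224), and relative to NT the gene was not called (-0.20 ± 0.10, adjusted p = 0.128). It was called lower than in NT with upper-quartile scaling, with total counts alone, with only the groups compared and without Doxo 4 and Doxo+Cyta 20, the last at -0.22 ± 0.08 (adjusted p = 0.0264). Leaving out Doxo+Cyta+DAC 32 or 33 lost both calls, and leaving out Doxo 5 or 6 the one relative to Doxo (adjusted p up to 0.101). AURKA, the kinase of the spindle poles, was at 84.7 and 77.9 CPM in NT, 75.0, 84.5 and 91.8 in Doxo, 89.7, 76.3 and 78.7 in Doxo+Cyta and 75.6, 57.6, 73.4 and 69.0 in Doxo+Cyta+DAC. Doxo+Cyta+DAC 31 was the lowest library, and the call relative to Doxo (-0.28 ± 0.12, adjusted p = 0.0499) was lost in 11 of 16 alternatives, with an adjusted p of up to 0.205. Without Doxo 4 and Doxo+Cyta 20, AURKA was called in all 3 comparisons, with -0.26 ± 0.11 (adjusted p = 0.0462) relative to NT.

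The spindle checkpoint, which holds back anaphase until every chromosome is attached, held BUB1, the member with the lowest log2 fold change, and 3 genes that were higher in at least 1 comparison. Of its 5 genes, 2 were lower and 1 higher in Doxo+Cyta+DAC than in NT, and 2 were lower and 2 higher relative to Doxo as well as relative to Doxo+Cyta. BUB1, a checkpoint kinase at the kinetochore (chr2:110637698-110678107, minus strand), had 727 and 745 CPM in NT, 636, 716 and 729.5 in Doxo, 691, 536 and 765 in Doxo+Cyta and 255, 265, 283 and 336 in Doxo+Cyta+DAC. Levels in Doxo+Cyta+DAC were below those of all other libraries, and among the other 8 libraries Doxo+Cyta 20 was the lowest. The log2 fold change of BUB1 was -1.37 ± 0.14 relative to NT (adjusted p = 6.34e-06), -1.28 ± 0.12 relative to Doxo (adjusted p = 2e-06) and -1.22 ± 0.12 relative to Doxo+Cyta (adjusted p = 2.17e-06), or 2.59-fold, 2.44-fold and 2.33-fold lower. It was called in every alternative tried for these comparisons, with log2 fold changes from -1.36 to -1.12 relative to Doxo+Cyta. In the relapses without decitabine BUB1 did not pass the test. Relative to NT the log2 fold change was -0.09 ± 0.15 for Doxo and -0.15 ± 0.15 for Doxo+Cyta, with adjusted p values of 0.742 and 0.614.

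BUB1B (BubR1), which with MAD2L1 and BUB3 forms the inhibitor that the checkpoint sends to CDC20, stood at 136 and 141 CPM in NT, 119, 104 and 106 in Doxo, 109, 86.3 and 101 in Doxo+Cyta and 154, 129.7, 126 and 142 in Doxo+Cyta+DAC. Doxo and Doxo+Cyta libraries lay below those of NT and Doxo+Cyta+DAC, which overlapped. BUB1B was higher in Doxo+Cyta+DAC than in Doxo+Cyta (0.48 ± 0.11, adjusted p = 0.00151) and than in Doxo (0.33 ± 0.11, adjusted p = 0.0165), and relative to NT the log2 fold change was -0.01 ± 0.12 (adjusted p = 0.961). The call relative to Doxo was lost without Doxo 5, Doxo 6 or Doxo+Cyta+DAC 30 (adjusted p up to 0.0708). MAD2L1 was at 68.1 and 65.7 CPM in NT, 54.8, 55.2 and 66.6 in Doxo, 57.9, 50.8 and 62.9 in Doxo+Cyta and 69.2, 72.8, 79.7 and 76.3 in Doxo+Cyta+DAC. It was highest in the 4 Doxo+Cyta+DAC libraries and was called relative to Doxo+Cyta (0.38 ± 0.11, adjusted p = 0.00846) and to Doxo (0.34 ± 0.11, adjusted p = 0.0162, lost without Doxo 5 at an adjusted p of 0.0708). TTK, the kinase that starts checkpoint signaling, was called lower in all 3 comparisons, with log2 fold changes from -0.62 to -0.52, and lost its calls relative to NT without NT 1 or NT 2 and relative to Doxo+Cyta without Doxo+Cyta 19 (adjusted p up to 0.0804 and 0.0537). BUB3 was called higher relative to NT alone (0.25 ± 0.10, adjusted p = 0.0495), and the call was lost in 11 of 15 alternatives (adjusted p up to 0.257).

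The 4 genes around the anaphase-promoting complex (APC/C), the ubiquitin ligase that starts chromosome separation, were all lower in Doxo+Cyta+DAC than in Doxo and than in Doxo+Cyta. Of all tested genes 30.4% and 30.5% were called lower in these comparisons. Relative to NT none passed edgeR's test, none had an unadjusted p under 0.05, and DESeq2 called none. Without Doxo 4 and Doxo+Cyta 20, edgeR called both CDC20, at -0.23 ± 0.08 (adjusted p = 0.0207), and PTTG1, at -0.29 ± 0.09 (adjusted p = 0.0162), lower than in NT, as it did with total counts alone and with only the groups compared. UBE2C, the ubiquitin-conjugating enzyme of the complex, had 50.2 and 47.2 CPM in NT, 70.4, 75.3 and 86.5 in Doxo, 67.2, 66.4 and 63.9 in Doxo+Cyta and 46.6, 33.7, 41.8 and 45.3 in Doxo+Cyta+DAC. Doxo and Doxo+Cyta libraries lay above NT and those of Doxo+Cyta+DAC below it, without overlap. UBE2C was the only member called in Doxo relative to NT (0.67 ± 0.15, adjusted p = 0.0125), a call that was lost without NT 1, NT 2 or Doxo 6 (adjusted p up to 0.141). With decitabine the log2 fold change of UBE2C was -0.89 ± 0.12 relative to Doxo (adjusted p = 2.74e-05), -0.65 ± 0.12 relative to Doxo+Cyta (adjusted p = 0.000327) and -0.22 ± 0.14 relative to NT (adjusted p = 0.199). CDC20, the activator of the APC/C, stood at 384 and 355 CPM in NT, 337, 428 and 448 in Doxo, 384, 406 and 379 in Doxo+Cyta and 352, 312, 326 and 289 in Doxo+Cyta+DAC. Doxo 5 and 6 were the highest libraries, and Doxo 4 lay among those of Doxo+Cyta+DAC. CDC20 was called relative to Doxo (-0.34 ± 0.11, adjusted p = 0.0134, lost without Doxo 5 or 6) and relative to Doxo+Cyta (-0.29 ± 0.11, adjusted p = 0.031, lost without Doxo+Cyta 19 or 20 or Doxo+Cyta+DAC 31, 32 or 33), with an adjusted p of up to 0.0864 and 0.0862. PTTG1 (securin) and CDCA3 had log2 fold changes from -0.52 to -0.32 relative to Doxo and Doxo+Cyta, and lost calls when single libraries were left out, PTTG1 relative to Doxo without Doxo 6 (adjusted p = 0.0897) and CDCA3 relative to Doxo without Doxo 5 or 6 or Doxo+Cyta+DAC 31 or 33 and relative to Doxo+Cyta without Doxo+Cyta 20 or Doxo+Cyta+DAC 31 or 33 (up to 0.121 and 0.066).

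Centromere and kinetochore genes, which mark the centromere and tie it to microtubules, went in both directions. Of 6, 2 were higher and 2 lower than in NT, 1 higher and 2 lower than in Doxo, and 3 higher and 1 lower than in Doxo+Cyta. The NDC80 complex, the rod that grips microtubules, has NDC80, NUF2 and SPC25 among the members. SPC25 was at 20.8 and 19.4 CPM in NT, 19.7, 15.6 and 17.7 in Doxo, 13.7, 23.7 and 14.5 in Doxo+Cyta and 30.2, 27.1, 30.4 and 36.0 in Doxo+Cyta+DAC. The 4 Doxo+Cyta+DAC libraries were the highest of all, and Doxo+Cyta 20 lay above its partners. The log2 fold change was 0.62 ± 0.20 relative to NT (adjusted p = 0.0221), 0.81 ± 0.18 relative to Doxo (adjusted p = 0.00163) and 0.84 ± 0.18 relative to Doxo+Cyta (adjusted p = 0.00121). The deposited counts of SPC25 could include a copy of the gene on an alternate contig. NDC80 had 65.6 and 64.3 CPM in NT, 67.0, 66.9 and 75.8 in Doxo, 59.1, 64.2 and 58.2 in Doxo+Cyta and 83.2, 80.3, 70.8 and 81.3 in Doxo+Cyta+DAC. Doxo+Cyta+DAC lay above NT and Doxo+Cyta and overlapped Doxo through Doxo 6, and NDC80 was called relative to Doxo+Cyta (0.38 ± 0.10, adjusted p = 0.00382) and, in a call lost in 10 of 15 alternatives, relative to NT (0.28 ± 0.11, adjusted p = 0.0497, up to 0.218 in the alternatives). NUF2, the direct partner of NDC80, moved the opposite way and stood at 58.0 and 60.6 CPM in NT, 52.0, 61.0 and 64.6 in Doxo, 53.9, 53.8 and 53.8 in Doxo+Cyta and 38.5, 41.7, 32.5 and 37.0 in Doxo+Cyta+DAC. Its 4 lowest libraries were those of Doxo+Cyta+DAC, with a log2 fold change of -0.66 ± 0.12 relative to NT (adjusted p = 0.000605), -0.66 ± 0.11 relative to Doxo (adjusted p = 0.000158) and -0.52 ± 0.11 relative to Doxo+Cyta (adjusted p = 0.000964). NUF2 was called at the threshold of 0.05 in every alternative of these comparisons. SPC25 was called at the same threshold in every alternative relative to Doxo and to Doxo+Cyta. Its call relative to NT was lost without NT 1, NT 2 or Doxo+Cyta+DAC 33 (adjusted p up to 0.14). SPC24, the remaining subunit, is no member and was chosen after its values were seen. Its log2 fold change was -0.31 ± 0.13 relative to NT and 0.04 ± 0.12 relative to Doxo+Cyta, and neither was called (adjusted p = 0.0716 and 0.807).

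CENPE, a kinesin that carries chromosomes to the spindle equator, was at 82.3 and 88.9 CPM in NT, 64.0, 63.2 and 72.8 in Doxo, 67.3, 43.4 and 61.8 in Doxo+Cyta and 59.4, 68.0, 56.8 and 64.2 in Doxo+Cyta+DAC. NT held the 2 highest libraries and Doxo+Cyta 20 was the lowest. CENPE was called in Doxo+Cyta+DAC over NT (-0.46 ± 0.15, adjusted p = 0.0214), a call that was lost without NT 1, NT 2 or Doxo+Cyta+DAC 32 (adjusted p up to 0.147). CENPF, a large protein of the outer kinetochore, had 289.9 and 318 CPM in NT, 267, 265 and 263 in Doxo, 234, 182 and 219 in Doxo+Cyta and 267, 269.9, 239 and 279.9 in Doxo+Cyta+DAC. The Doxo+Cyta libraries were the lowest of all, with Doxo+Cyta 20 farthest down. CENPF was lower in Doxo+Cyta than in NT (-0.52 ± 0.12, adjusted p = 0.0461) and higher in Doxo+Cyta+DAC than in Doxo+Cyta (0.32 ± 0.10, adjusted p = 0.013). CENPA, the centromeric histone, was called lower relative to Doxo alone (-0.35 ± 0.10).

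Of the 7 kinesins, motors that push and pull spindle microtubules, 1 was higher and 3 lower in Doxo+Cyta+DAC than in NT, 2 higher and 4 lower than in Doxo, and 2 higher and 3 lower than in Doxo+Cyta. KIF20B, which acts late in cell division, stood at 34.7 and 39.7 CPM in NT, 29.8, 30.9 and 33.7 in Doxo, 25.5, 15.7 and 28.2 in Doxo+Cyta and 51.8, 57.7, 53.3 and 53.8 in Doxo+Cyta+DAC. Its 4 highest libraries were those of Doxo+Cyta+DAC, and its lowest was Doxo+Cyta 20. KIF20B had the highest log2 fold change of all members relative to Doxo+Cyta (1.22 ± 0.16, adjusted p = 2.19e-05), with 0.78 ± 0.16 relative to Doxo (adjusted p = 0.000824) and 0.54 ± 0.18 relative to NT (adjusted p = 0.0233). Without Doxo 4 and Doxo+Cyta 20 the value relative to Doxo+Cyta was 1.01 ± 0.10 (adjusted p = 9.07e-07), and the call relative to NT was lost without NT 1 or NT 2 or when libraries were scaled by total counts alone (adjusted p up to 0.189). KIF11 (Eg5), which drives the spindle poles apart, was at 107 and 121 CPM in NT, 95.8, 92.4 and 97.0 in Doxo, 85.5, 67.5 and 92.0 in Doxo+Cyta and 116, 116, 113 and 123 in Doxo+Cyta+DAC. Doxo+Cyta+DAC overlapped NT and lay above Doxo and Doxo+Cyta. KIF11 was called relative to Doxo+Cyta (0.52 ± 0.11, adjusted p = 0.000936) and relative to Doxo (0.30 ± 0.11, adjusted p = 0.0272, lost without Doxo 5, Doxo 6 or Doxo+Cyta+DAC 33 at an adjusted p of up to 0.0829). KIF23, the motor of the central spindle, had 97.6 and 105 CPM in NT, 109.9, 120.2 and 122 in Doxo, 92.3, 70.2 and 89.0 in Doxo+Cyta and 103, 84.4, 85.1 and 92.2 in Doxo+Cyta+DAC. Doxo held the 3 highest libraries and Doxo+Cyta 20 the lowest. KIF23 was called lower in Doxo+Cyta+DAC than in Doxo (-0.37 ± 0.11, adjusted p = 0.0123). Doxo+Cyta was also lower than Doxo (-0.49 ± 0.12, adjusted p = 0.0438), in a call lost in 8 of 15 alternatives. KIF20A, KIF2C and KIFC1 were called lower in all 3 comparisons with Doxo+Cyta+DAC, with log2 fold changes from -0.64 to -0.28, and KIF4A in none. Relative to NT, KIF20A and KIF2C lost their calls without NT 1 or NT 2, and KIF2C also without Doxo+Cyta+DAC 31 or 32 (adjusted p up to 0.117 and 0.12). Relative to Doxo+Cyta, KIF20A lost its call without Doxo+Cyta 19 or 22 or Doxo+Cyta+DAC 32 or 33 (up to 0.0977). KIFC1, a motor that bundles spindle poles, kept its call relative to NT in every alternative, and the deposited counts of KIFC1 could include 2 further copies on alternate contigs.

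Proteins that build and focus spindle microtubules were lower or not called, except GTSE1. Of 8 genes, 3 were lower in Doxo+Cyta+DAC than in NT and 4 lower than in Doxo, and relative to Doxo+Cyta 2 were lower and 1 higher. TPX2, which activates AURKA and seeds microtubules at chromosomes, stood at 522 and 500.2 CPM in NT, 451, 461 and 489 in Doxo, 451, 447 and 443 in Doxo+Cyta and 469, 456, 432 and 452 in Doxo+Cyta+DAC. NT held the 2 highest libraries, and no comparison was called, with -0.18 ± 0.09 in Doxo+Cyta+DAC over NT (adjusted p = 0.103). It was called lower than in NT in 6 alternatives, DESeq2 among them, and without Doxo 4 and Doxo+Cyta 20 the value was -0.20 ± 0.06 (adjusted p = 0.0156). CKAP5, a polymerase that lengthens microtubules, was at 331 and 349 CPM in NT, 284, 298 and 289.7 in Doxo, 296, 223 and 309.8 in Doxo+Cyta and 248, 260.2, 241 and 259.5 in Doxo+Cyta+DAC. NT was again highest and Doxo+Cyta 20 lowest, and CKAP5 was called in Doxo+Cyta+DAC over NT (-0.43 ± 0.12, adjusted p = 0.00787, lost without NT 2 at an adjusted p of 0.0755). CKAP2, which binds spindle microtubules, had 138 and 145 CPM in NT, 147, 206 and 199 in Doxo, 137, 102 and 150.3 in Doxo+Cyta and 97.8, 89.6, 97.4 and 112 in Doxo+Cyta+DAC. Doxo 5 and 6 were far above the rest, and Doxo+Cyta 20 lay within Doxo+Cyta+DAC. CKAP2 was lower in Doxo+Cyta+DAC than in Doxo (-0.89 ± 0.14, adjusted p = 0.000118), than in NT (-0.51 ± 0.16, adjusted p = 0.0166, lost without NT 1 or NT 2) and than in Doxo+Cyta (-0.39 ± 0.14, adjusted p = 0.0299, lost without Doxo+Cyta 19 or 22 or Doxo+Cyta+DAC 30, 31 or 32), with an adjusted p of up to 0.103 and 0.138. HMMR, which binds microtubules near the poles, was called lower in all 3 comparisons, with log2 fold changes from -0.54 to -0.37. It lost its call relative to NT without NT 1 or NT 2 and relative to Doxo+Cyta without Doxo+Cyta 19 or 22 or Doxo+Cyta+DAC 30, 31 or 33 (adjusted p up to 0.09 and 0.167). NUSAP1, which bundles microtubules at chromosomes, and TACC3, which cross-links them, were called lower relative to Doxo alone (-0.24 ± 0.09 and -0.32 ± 0.11). These calls were lost in 7 and 1 of 16 alternatives. Without Doxo 4 and Doxo+Cyta 20 both were also called lower than in NT, NUSAP1 at -0.27 ± 0.07 (adjusted p = 0.00478) and TACC3 at -0.26 ± 0.07 (adjusted p = 0.00411). NUSAP1 was then lower than in Doxo+Cyta as well (-0.19 ± 0.07, adjusted p = 0.0299). DLGAP5 was called in no comparison. GTSE1 was called higher relative to Doxo+Cyta (0.27 ± 0.11), in a call lost in 9 of 16 alternatives.

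For the spindle midzone and cytokinesis, PRC1 alone was called with all libraries. PRC1, which bundles the microtubules of the central spindle, stood at 177 and 182 CPM in NT, 218, 224 and 225 in Doxo, 179, 162 and 177 in Doxo+Cyta and 163, 129, 146 and 177 in Doxo+Cyta+DAC. The 3 Doxo libraries were the highest. Doxo+Cyta+DAC was lower than Doxo (-0.54 ± 0.10, adjusted p = 0.000534), and relative to NT and Doxo+Cyta the values were -0.23 ± 0.12 (adjusted p = 0.127) and -0.17 ± 0.10 (adjusted p = 0.18). Without Doxo 4 and Doxo+Cyta 20, PRC1 was called lower than in NT at -0.25 ± 0.10 (adjusted p = 0.0456). ECT2, which switches on the contractile ring, and ANLN, its scaffold, were not called, and the SE of their log2 fold changes relative to Doxo+Cyta was 0.21 and 0.15. Without Doxo 4 and Doxo+Cyta 20, both were higher in Doxo than in NT, ECT2 by 0.46 ± 0.12 (adjusted p = 0.0121) and ANLN by 0.42 ± 0.10 (adjusted p = 0.00826). Doxo+Cyta+DAC was then lower than Doxo in ECT2 at -0.27 ± 0.11 (adjusted p = 0.0345) and ANLN at -0.41 ± 0.09 (adjusted p = 0.0013), and Doxo+Cyta lower than Doxo in ANLN at -0.55 ± 0.10 (adjusted p = 0.00836).

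FOXM1, the transcription factor of G2 and M genes, was higher in Doxo+Cyta+DAC than in each other group. FOXM1 was at 103 and 104 CPM in NT, 96.2, 77.6 and 80.5 in Doxo, 67.7, 83.9 and 78.7 in Doxo+Cyta and 152, 132, 143 and 128 in Doxo+Cyta+DAC. The 4 Doxo+Cyta+DAC libraries were the highest of all, and Doxo and Doxo+Cyta lay below NT. Its log2 fold change was 0.85 ± 0.11 relative to Doxo+Cyta (adjusted p = 1.93e-05), 0.71 ± 0.11 relative to Doxo (adjusted p = 0.0001) and 0.42 ± 0.13 relative to NT (adjusted p = 0.0133). The first 2 were called in every alternative, and the third was lost without NT 1 or NT 2 or with total counts alone (adjusted p up to 0.0945). MKI67 (Ki-67), the common marker of cycling cells, had 372 and 413 CPM in NT, 393, 368 and 343 in Doxo, 279.7, 203 and 269 in Doxo+Cyta and 364, 364, 315 and 348 in Doxo+Cyta+DAC. Doxo+Cyta held the 3 lowest libraries, with Doxo+Cyta 20 farthest down. MKI67 was lower in Doxo+Cyta than in NT (-0.65 ± 0.13, adjusted p = 0.0372) and than in Doxo (-0.55 ± 0.12, adjusted p = 0.0252), and higher in Doxo+Cyta+DAC than in Doxo+Cyta (0.47 ± 0.11, adjusted p = 0.00262). Relative to NT, Doxo+Cyta+DAC did not pass the test (-0.17 ± 0.13, adjusted p = 0.274) but did without Doxo 4 and Doxo+Cyta 20, at -0.20 ± 0.08 (adjusted p = 0.0414).

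In relapses without decitabine few members were called relative to NT. In Doxo 1 member, UBE2C, was called higher and none lower by edgeR or DESeq2, with 10.7% of all genes called (6.06% higher, 4.63% lower). An unadjusted p under 0.05 was found for 7 of the 48 members and 4011 of the 14164 genes. The median log2 fold change was 0.04 (0.01 over all genes) and turned to -0.08 when libraries were scaled by total counts alone, which moved the median of all genes to -0.11. In Doxo+Cyta, MKI67 and CENPF were lower and none was called higher, with 1.46% of all genes called (0.911% higher, 0.551% lower). Here 12 of the 48 members and 2888 of the 14164 genes had an unadjusted p under 0.05, DESeq2 called 8 members lower and 6.2% of all genes, and the median was -0.12 (0.01 over all genes). MKI67 and CENPF lost their calls without either NT library and without Doxo+Cyta 19 or 22 (adjusted p up to 0.448 and 0.492). Relative to Doxo, Doxo+Cyta had 3 lower members, MKI67, CDCA8 and KIF23, with 3.4% of all genes called (1.07% higher, 2.32% lower). These calls were lost without Doxo 5 or 6, those of CDCA8 and KIF23 also without Doxo+Cyta 19, and that of KIF23 also without Doxo+Cyta 20 or 22 (adjusted p up to 0.147, 0.0983 and 0.178). No member was called higher by edgeR or DESeq2, 11 of 48 and 2673 of 14164 genes had an unadjusted p under 0.05, and DESeq2 called 6 members lower and 6.62% of all genes.

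Leaving out Doxo 4 and Doxo+Cyta 20 raised the counts. Doxo then had 8 members higher and 6 lower than NT, with 37.4% of all genes called, Doxo+Cyta had 12 lower than NT, with 14.5% called, and Doxo+Cyta had 8 lower than Doxo, with 8.96% called. MKI67 then had a log2 fold change of -0.54 ± 0.09 (adjusted p = 0.00279) in Doxo+Cyta relative to NT, CENPF -0.45 ± 0.09 (adjusted p = 0.00664), and UBE2C in Doxo 0.70 ± 0.13 (adjusted p = 0.0017). Libraries of Doxo lay wholly above NT for 11 members and wholly below for 10 (24.6% and 24.5% of all genes), and those of Doxo+Cyta for 4 and 20 (21.4% and 19.2%). Against Doxo, Doxo+Cyta lay wholly below for 15 members (10.4% of all genes).

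DNA replication genes, measured beside the members as the other main list of cycling cells, went a different way. Of 51 genes, 40 were higher and 1 lower in Doxo+Cyta+DAC than in NT (24.9% and 23.7% of all tested genes). The median log2 fold change was 0.71 where that of the members was -0.20. Relative to Doxo+Cyta 45 were higher and 1 lower (29.8% and 30.5% of all tested genes), with medians of 1.05 and -0.10. Relative to Doxo 47 were higher and 1 lower (29.1% and 30.4%), with medians of 1.22 and -0.26. In Doxo 1 was higher and 14 were lower than in NT (6.06% and 4.63% of all tested genes). CLSPN, a checkpoint mediator at forks, and UHRF1, which maintains DNA methylation, had the highest values relative to Doxo+Cyta (2.42 ± 0.22 and 2.29 ± 0.27), and GINS4, a subunit of the replicative helicase, relative to NT (1.80 ± 0.24). CDT1, a licensing factor, was the gene that was lower (-0.54 ± 0.12 relative to NT and -0.84 ± 0.10 relative to Doxo+Cyta). By library, the replication median relative to the NT mean lay between 0.70 and 0.79 in Doxo+Cyta+DAC and that of the members between -0.25 and -0.13. In Doxo 5 and 6 it was the replication median that lay lower, at -0.68 and -0.58, with the member median at 0.07 and 0.13, while Doxo 4 had -0.15 and -0.06. In Doxo+Cyta 20 the replication median was -0.08 and in its partners -0.41 and -0.45.

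**Figure D5:**
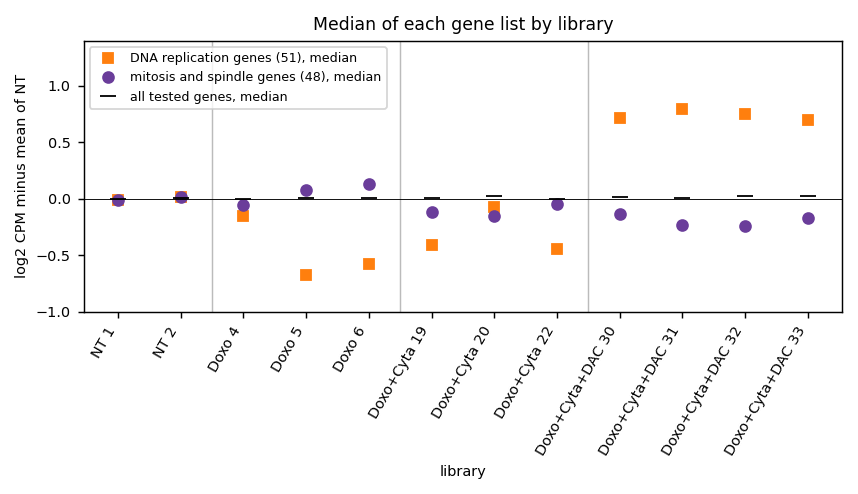
Median over the genes of each list of log2 CPM minus the mean of the NT libraries, by library, for the 48 mitosis and spindle genes (circles), 51 DNA replication genes (squares) and all tested genes (short bars). In the 4 Doxo+Cyta+DAC libraries the replication median lies between 0.70 and 0.79 and the mitosis and spindle median between -0.25 and -0.13.

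Other mitotic genes that are no members, listed with their log2 fold change ± SE and each called at an adjusted p under 0.05, were also mixed. Of 120 tested genes in 5 lists, 35 were higher and 25 lower in Doxo+Cyta+DAC than in NT, with a median of 0.15. These were 29.2% and 20.8% of the 120, near the 24.9% and 23.7% of all tested genes. Relative to Doxo+Cyta 61 were higher and 13 lower, with a median of 0.35. Here the shares were 50.8% and 10.8%, with 29.8% and 30.5% of all tested genes. Among 34 further centromere and kinetochore genes, 20 were higher and 3 lower than in Doxo+Cyta, led by CENPO (1.44 ± 0.16) and ZWILCH (1.41 ± 0.12), with CENPC (-0.67 ± 0.17) and HJURP (-0.50 ± 0.10) lowest. Relative to NT 15 were higher and 5 lower, with CENPN (1.22 ± 0.16), CENPL (1.00 ± 0.17), CENPH (-0.63 ± 0.13) and DSN1 (-0.55 ± 0.12) at the ends. Of 24 condensin and cohesin genes, 15 were higher than in Doxo+Cyta, with ESCO2, the acetyltransferase of sister chromatid cohesion, and STAG1, a cohesin subunit, leading there (1.79 ± 0.19 and 1.36 ± 0.14) and relative to NT (1.55 ± 0.22 and 0.95 ± 0.16), where 5 were higher and NCAPD2 was lower (-0.39 ± 0.12).

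Of 17 APC/C subunits and regulators, 7 were higher and 3 lower than in Doxo+Cyta, with ANAPC15 (0.85 ± 0.21) and ANAPC7 (0.75 ± 0.14) highest and CDC16 (-0.54 ± 0.11) and ANAPC16 (-0.48 ± 0.09) lowest. Relative to NT 2 were higher, ANAPC15 (0.90 ± 0.25) and FBXO5 (0.49 ± 0.12), an inhibitor of the complex, and 3 lower, CDC16 (-0.46 ± 0.12) and ANAPC4 (-0.39 ± 0.13) most. Of 20 centrosome genes, 8 were higher and 2 lower than in Doxo+Cyta: PLK4, which starts centriole duplication, had 1.00 ± 0.12, HAUS8 0.81 ± 0.17, NEK2, a kinase that parts the centrosomes, -1.68 ± 0.18 and HAUS4 -0.90 ± 0.12. Relative to NT 5 were higher and 7 lower, with HAUS7 (0.84 ± 0.32) and HAUS2 (0.64 ± 0.14) highest and NEK2 (-1.43 ± 0.20) and HAUS4 (-0.85 ± 0.13) lowest. Of 25 further genes of mitotic entry, motors and cytokinesis, 11 were higher and 5 lower than in Doxo+Cyta. CDC25A, the phosphatase of the G1 to S step and sister of the members CDC25B and CDC25C, was the highest (1.67 ± 0.13, and 1.12 ± 0.15 relative to NT). LMNB1 had 1.16 ± 0.12, PSRC1 -1.14 ± 0.18 and FAM83D -0.68 ± 0.14. Relative to NT 8 were higher and 9 lower, among them ENSA (0.60 ± 0.16), PSRC1 (-1.13 ± 0.19) and FAM83D (-0.88 ± 0.15). From the centromere list on, in the order given, 58.8%, 25%, 29.4%, 60% and 68% of the genes were called in either direction relative to NT. Of all tested genes 48.7% were. Relative to Doxo+Cyta the shares were 67.6%, 62.5%, 58.8%, 50% and 64%, with 60.3% of all tested genes.

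Regulators of these promoters, which are genes of the complexes that bind them and CDKN1A, changed in both directions in Doxo+Cyta+DAC. Of 17, 10 were higher and 4 lower than in Doxo+Cyta (58.8% and 23.5%, with 29.8% and 30.5% of all tested genes). Relative to NT 9 were higher and 4 lower (52.9% and 23.5%, with 24.9% and 23.7% of all tested genes). RBL2, the pocket protein of DREAM, was lower (-1.49 ± 0.18 relative to Doxo+Cyta and -1.50 ± 0.20 relative to NT), as was LIN37 of the MuvB core (-1.32 ± 0.16 and -1.08 ± 0.17). RBL1, the related pocket protein, was higher (1.74 ± 0.16 and 1.35 ± 0.18), TFDP1, the dimer partner of E2F proteins, was highest relative to Doxo+Cyta (1.91 ± 0.20), and CDKN1A, the CDK inhibitor p21, was highest relative to NT (2.44 ± 0.53). CDKN1A was also higher in Doxo than in NT (3.13 ± 0.56), and Doxo+Cyta+DAC was not called relative to Doxo (-0.69 ± 0.40, adjusted p = 0.15). Of the lineage markers, 7 of 8 erythroid genes were lower than in Doxo+Cyta, with ALAS2 (-1.13 ± 0.27) and GATA1 (-1.01 ± 0.10) lowest, and 2, KLF1 (-0.71 ± 0.15) and GATA1 (-0.62 ± 0.11), were lower than in NT. Of 5 tested megakaryocytic genes, 3 were lower and 1 higher in both comparisons, with TUBB1 (-1.63 ± 0.21 and -1.48 ± 0.23) and, relative to Doxo+Cyta, ITGA2B (-0.59 ± 0.12) among the lowest and GP1BA (0.73 ± 0.21 and 0.93 ± 0.24) higher. Among the other blood markers NKG7 was lower than in Doxo+Cyta (-0.63 ± 0.23).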

How the data were processed

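Total RNA of 12 cultures of HEL cells was sequenced in pairs with a TruSeq RNA kit. The table deposited by the authors holds raw counts of fragments per gene, with the summed exon length of each gene. Per the file headers and the study's methods, the authors checked reads with FastQC, aligned them to GRCh38 with Bowtie2 2.2.8 and counted fragments without regard to strand in featureCounts 1.6.0, leaving out chimeric pairs. Bowtie2 does not split reads over introns. Samples were grouped by the labels, which name them biological replicates, so p-values measure the spread between cultures of 1 line. The series text speaks of 3 untreated samples, and 2 are labelled so and used here.

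Of 26485 genes, 4 with a missing count were left out. Counts were filtered with filterByExpr, which left 14164 genes, scaled with TMM, and tested in 1 model of the 12 samples with edgeR 4.0.16 in R 4.3.3 (quasi-likelihood, two-sided, Benjamini-Hochberg over all tested genes). Levels (CPM) are counts divided by TMM-scaled totals, as edgeR's cpm function gives them, and log2 CPM used a prior count of 2. Scripts were tested on simulated data. Python 3.11.15, pandas 2.3.3 and matplotlib 3.10.9 were used for promoters and figures. Alternatives were RLE, upper-quartile and total-count scaling, other filters, DESeq2 1.42.0, a stricter threshold, only the groups compared, totals without the 100 genes with the most counts, and each library left out in turn. Leaving out Doxo 4 and Doxo+Cyta 20 together was chosen after seeing the data. The stricter threshold was applied to the main fit alone. Calls held or lost over the alternatives are at an adjusted p under 0.05.

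The members, gene lists and tests were chosen with earlier results of these data known. Values in every library are given for 18 members that lead their roles and for the 3 members per direction and comparison with the largest log2 fold change among those called. Of each other list, the 2 genes per direction with the largest called change in Doxo+Cyta+DAC relative to NT and to Doxo+Cyta are named. A named gene that these rules would add is not reported here.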

Additional observations from a re-analysis of the deposited data

Results flagged for a closer look

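In a group of 4 libraries, a value is given here when its gap to the nearest of the others as a share of the whole range passes Dixon's 95% limit for 4 samples, which chance alone would give in about 1 in 20 groups. Among the 48 genes, 3 met it, a share near that 1 in 20. All were in Doxo+Cyta+DAC, the only group of 4 libraries and so the only one where the rule applied. CCNB2 was at 120 CPM in Doxo+Cyta+DAC 32 and between 144 and 148 CPM in the other libraries of the group (0.871 of the range). CDC25C was at 16.7 CPM in Doxo+Cyta+DAC 33 and between 13.6 and 13.7 CPM in the others (0.965). ANLN was at 47.4 CPM in Doxo+Cyta+DAC 33 and between 41.2 and 41.6 CPM in the others (0.923).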

How the results depend on the processing

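The 4320 results of single genes under the alternatives kept their direction wherever they had been called, with 181 calls lost and 105 gained. At an adjusted p under 0.05, calls held in every alternative for 5 of 20 members in Doxo+Cyta+DAC relative to NT. They held for 19 of 33 relative to Doxo and 20 of 30 relative to Doxo+Cyta, and for none of the calls in the other comparisons. In each comparison with NT, leaving out either of its 2 libraries lost calls. The stricter threshold (adjusted p under 0.01, more than 2-fold) left 0 members called for Doxo over NT, 0 for Doxo+Cyta over NT, 0 for Doxo+Cyta over Doxo, and 1, 1 and 2 for Doxo+Cyta+DAC over NT, Doxo and Doxo+Cyta. Leaving out each replicate in turn gave 0 to 5 in Doxo relative to NT. The count was 5 without Doxo 4, when 22.2% of all genes were called. It was 0 without NT 1, NT 2 or Doxo 6, with 0.555%, 0.72% and 3.53% called. Doxo+Cyta had 0 to 2 relative to NT, with 0% to 1.6% of all genes called. Relative to Doxo it had 0 to 7 (7 without Doxo 4, with 6.21% of all genes called). Doxo+Cyta+DAC had 6 to 17 relative to NT (6 without either NT library, with 30.6% and 31.5% called). Relative to Doxo it had 20 to 33 (20 without Doxo 5 and 21 without Doxo 6, with 49.3% and 50.2% called). Relative to Doxo+Cyta it had 23 to 29, with 53.9% of all genes called at the 23 and 62.4% at the 29. Without both Doxo 4 and Doxo+Cyta 20 the counts were 14, 12 and 8 in the first 3 and 33 in Doxo+Cyta+DAC relative to NT, where more genes were called overall. In Doxo+Cyta relative to NT, 6 were called with no filter on low counts, 8 by DESeq2 and 0 with only the groups compared. The share of all genes called moved with them, at 1.76%, 6.2% and 0.0951%. In Doxo+Cyta relative to Doxo, 6 were called by DESeq2 and 0 with only the groups compared (6.62% and 0.5% of all genes). The median of the members in Doxo relative to NT, 0.04, turned to -0.0065 with upper-quartile scaling, -0.081 with total counts alone, -0.011 with no filter on low counts and -0.017 without Doxo replicate 6, with a range of -0.017 to 0.082 over the libraries left out in turn. The cause of these shifts was not tested. No paired analysis was possible because the groups share no replicate numbers.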

Other observations

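The 8 tested genes beside BUB1, among those annotated on chromosome 2 alone, were examined after its values were seen. Genes with a further copy on an alternate contig were passed over. In Doxo+Cyta+DAC relative to NT, the log2 fold change of LINC00116 was -1.68 (edgeR, adjusted p = 0.000826), that of MIR4435-2HG -0.78 (adjusted p = 0.000427) and that of BCL2L11, a pro-apoptotic gene, -0.31 (adjusted p = 0.0484). SOWAHC was higher (1.55, adjusted p = 0.0053). SEPT10, LINC01106, MERTK and ANAPC1 (0.11, adjusted p = 0.406) were not called in that comparison. Relative to Doxo+Cyta and to Doxo, ANAPC1, a subunit of the APC/C, was higher (0.64, adjusted p = 5.8e-05, and 0.60, adjusted p = 0.00012), and LINC00116, MIR4435-2HG and MERTK were lower. SOWAHC was higher relative to Doxo+Cyta as well (1.07, adjusted p = 0.0123), and LINC01106 relative to Doxo (1.56, adjusted p = 0.0139). LINC00116 had a low level, at 3.54 CPM in NT and 1.095 in Doxo+Cyta+DAC, and so had LINC01106 (0.508 and 0.692).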
